A study of Drosophila melanogaster with 12 samples.

Results

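Sytalpha, GlyT, NaPi-III, Ace and CG13579 are 5 of the 17492 genes measured in both RNA tables of a study of Drosophila melanogaster larval carcasses. They were chosen by their measured intronic (pre-mRNA) values, whose mean was at least 3-fold higher in Nxt1 larvae than in wildtype larvae. At any depth, 324 of 4543 genes with finite intronic values and reads reached 3-fold. Among 2489 genes with a mean of at least 10 intronic reads per library over both genotypes, 30 genes (1.21%) did. All 5 were among these 30, at ranks 1, 2, 3, 7 and 5 in the order named above. Sytalpha and GlyT, with 2 and 7 intronic reads summed over wildtype, met that minimum only through the Nxt1 libraries. Of the genes that were not chosen, mwh and veil ranked above Ace. Just inside the threshold lay asRNA:CR44030 at 3.05-fold and CG33143 at 3.18-fold, and just outside it lay CG31875 at 2.95-fold and Mlp84B at 2.92-fold.

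The carcass is the body wall of the 3rd instar larva after the internal tissues have been dissected away. Wildtype (WT) larvae were of strain w1118. Nxt1 larvae were trans-heterozygous for Nxt1, which means that the copies of the gene on the homologous chromosomes carried different alleles, and those alleles are not named in the sources used here. Their listed strain was yw, so strain and genotype cannot be told apart. Total RNA of stationary larvae of both genotypes gave 12 libraries, of which the 6 M libraries (3 WT and 3 Nxt1) carried the mRNA and intronic values and the 6 R libraries carried counts of circular RNA (circRNA). M and R are read here as the mock-treated and RNase R-treated arms of the protocol, which the labels do not spell out. Whether replicates came from separate pools of larvae is not stated, so the spread between them may be technical.

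A pre-mRNA still holds its introns. Introns are removed by splicing, usually while the gene is transcribed, and the spliced mRNA is then exported from the nucleus by a receptor of which Nxt1 is a small cofactor. Intronic reads therefore come from transcripts that are not yet spliced, from excised introns, and from any other transcript that lies within the intron. Sytalpha belongs to the synaptotagmins, membrane proteins that act in vesicle fusion. Ace encodes acetylcholinesterase, which breaks down the transmitter acetylcholine. GlyT is named as a glycine transporter of the SLC6 family of sodium-coupled transporters, NaPi-III as a sodium-dependent phosphate transporter, and CG13579 is a predicted G protein coupled receptor. Sytalpha, GlyT and Ace are best known from the nervous system, while the carcass is mostly muscle and epidermis.

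Reads recovered from the deposited values came to between 19830523 and 32868851 mRNA reads and between 664554 and 1455763 intronic reads per M library, both lowest in Nxt1 replicate 1. The relative library factors for mRNA were 1.2425, 1.211 and 1.175 in WT and 0.5925, 0.9659 and 0.9885 in Nxt1. Read numbers below are unscaled unless stated, so they understate Nxt1 beside WT. The Nxt1 gene itself had a mean mRNA FPKM of 9.64 ± 1.22 among WT and 6.10 ± 0.429 among Nxt1 libraries (SD, n = 3 each). Summed reads of the muscle and epidermal marker lists were in the range of 861289 to 3051423 per library after scaling, and those of 12 neuronal markers in the range of 2063 to 2907. FPKM (read fragments scaled to feature length and library size) was computed by the authors with feature lengths that are out of order between genes. A ratio of FPKM within a gene is not affected by this, but FPKM levels of different genes are not comparable. The mRNA and intronic values below come from the same libraries and the same contrast that chose the genes. They are given as a description, with no test.

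**Figure D1:**
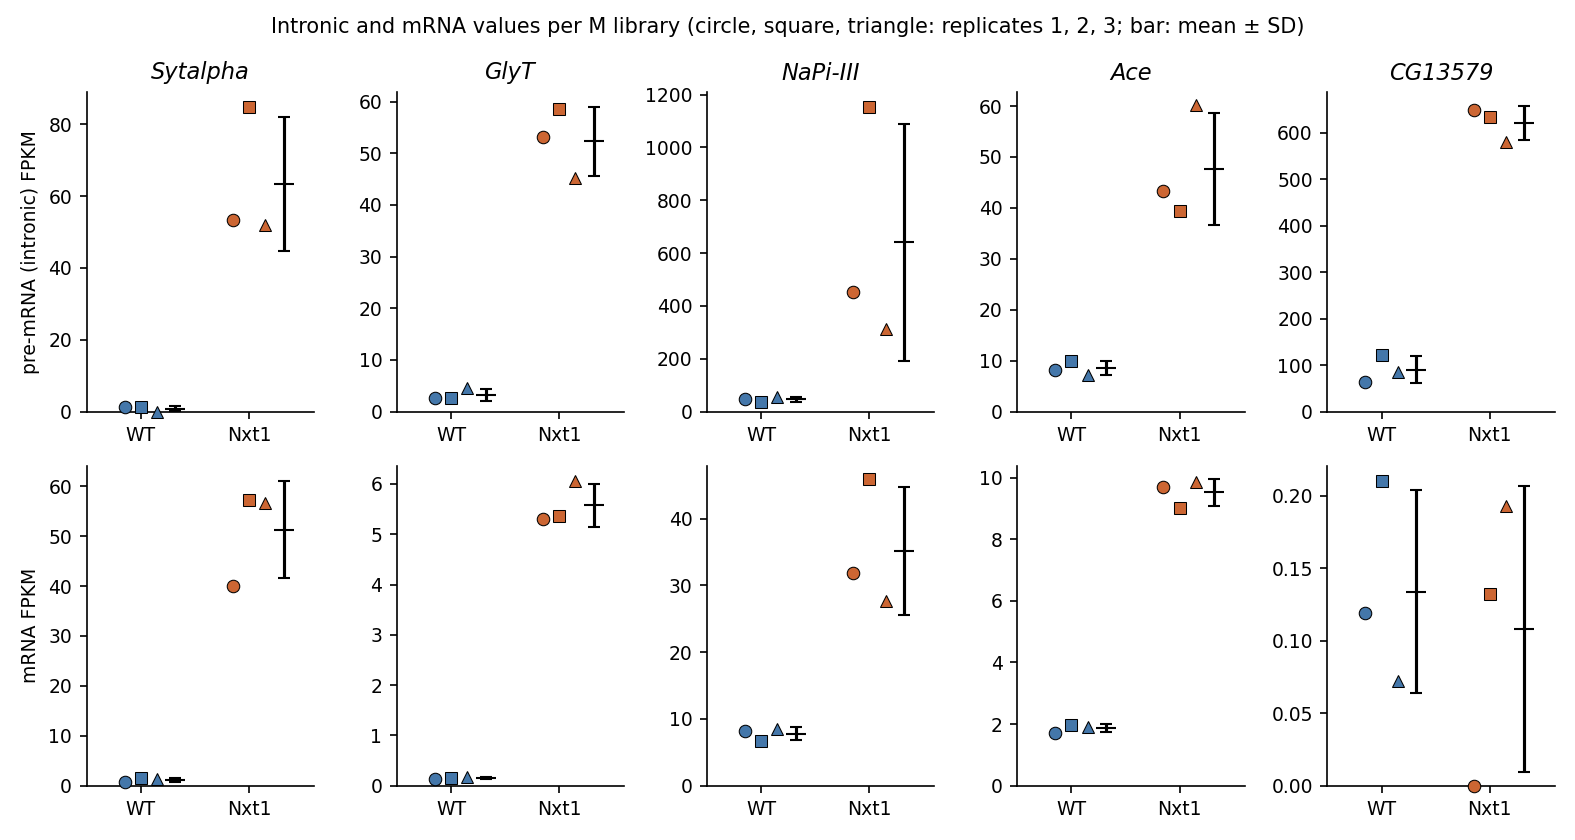
Pre-mRNA FPKM (upper row) and mRNA FPKM (lower row) of the 5 genes on linear axes from 0, one point per M library, with the mean ± SD of each genotype (n = 3). In the upper row all Nxt1 points lie above all WT points for every gene, and in the lower row this holds for all but CG13579.

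Sytalpha (FBgn0261089) was almost silent in WT carcasses and was well detected in Nxt1. Its mRNA reads numbered 12, 24 and 19 in WT replicates 1, 2 and 3 and 296, 691 and 700 in Nxt1 replicates 1, 2 and 3. Its intronic reads numbered 1, 1 and 0 in WT and 17, 52 and 32 in Nxt1. Both kinds of read were higher in every Nxt1 library than in any WT library. In bulk RNA a change in the number of cells that express a gene and a change in RNA per cell cannot be told apart, here or for the genes below. Mean mRNA FPKM was 1.22 ± 0.412 for WT against 51.3 ± 9.80 for Nxt1 (SD, n = 3 each), a 42.1-fold difference. Mean intronic FPKM was 0.882 ± 0.764 for WT against 63.3 ± 18.6 for Nxt1 (SD, n = 3 each), a 71.7-fold difference. The gene CG6870, which overlaps one end of Sytalpha, had 9 to 12 mRNA reads in WT and 20 to 23 in Nxt1 libraries. The intronic fold of Sytalpha rests on 2 WT reads against 101 Nxt1 reads. From the summed reads it was 70.1-fold with an exact 95% interval of 18.9 to 587, which covers counting error only, as do all intervals given here. Leaving out WT replicate 3, the library with 0 reads, gave 47.8-fold. The intronic and mRNA folds of Sytalpha were not distinguishable at this depth: intronic reads made up 3.51% of the gene's reads in WT (95% interval 0.428 to 12.1) and 5.65% in Nxt1 (4.62 to 6.82).

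Ace (FBgn0000024) was higher in Nxt1 by about the same factor in both kinds of read. Its mRNA reads numbered 244, 275 and 259 in WT and 659, 1001 and 1119 in Nxt1, and its intronic reads 31, 37 and 23 in WT and 68, 119 and 183 in Nxt1. Neither FPKM value overlapped between the groups. Mean mRNA FPKM was 1.87 ± 0.141 for WT against 9.52 ± 0.440 for Nxt1 (SD, n = 3 each), a 5.10-fold difference. Mean intronic FPKM was 8.51 ± 1.39 for WT against 47.6 ± 11.0 for Nxt1 (SD, n = 3 each), a 5.59-fold difference. Library by library, Nxt1 replicates 1, 2 and 3 stood at 5.18, 4.83 and 5.27 times the WT mean in mRNA and at 5.09, 4.62 and 7.05 times in intronic reads. The intronic share of the gene's reads was 11.3%, 11.9% and 8.16% in WT and 9.35%, 10.6% and 14.1% in Nxt1, so the groups overlapped. The reference table lists no gene that overlaps Ace.

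GlyT (FBgn0034911) was nearly undetected in WT, and its fold in mRNA was above that of its introns. Its mRNA reads numbered 8, 9 and 10 in WT and 153, 252 and 292 in Nxt1. Its intronic reads numbered 2, 2 and 3 in WT and 17, 36 and 28 in Nxt1. All Nxt1 libraries were above all WT libraries in both. Mean mRNA FPKM was 0.153 ± 0.0213 for WT against 5.57 ± 0.426 for Nxt1 (SD, n = 3 each), a 36.4-fold difference. Mean intronic FPKM was 3.31 ± 1.17 for WT against 52.3 ± 6.72 for Nxt1 (SD, n = 3 each), a 15.8-fold difference. From summed reads the mRNA fold was 36.8 (95% interval 25.1 to 56.2) and the intronic fold 16.1 (7.45 to 41.2). The intronic share of the reads was 20.0%, 18.2% and 23.1% in WT and 10.0%, 12.5% and 8.75% in Nxt1. Each Nxt1 share was below each WT share, but the odds of an mRNA read against an intronic read changed by a factor of 2.23 with a 95% interval of 0.793 to 5.46, which includes no change. One gene, CG4763, is nested in the span of GlyT, and it had 0 mRNA reads in all 6 libraries.

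NaPi-III (FBgn0260795) had the most reads of the 5 genes, and its intronic change was uneven between Nxt1 libraries. Its mRNA reads numbered 471, 372 and 457 in WT and 873, 2051 and 1261 in Nxt1. Its intronic reads numbered 32, 25 and 31 in WT and 128, 628 and 172 in Nxt1, highest in replicate 2. The groups did not overlap in either value. Mean mRNA FPKM was 7.75 ± 0.965 for WT against 35.1 ± 9.59 for Nxt1 (SD, n = 3 each), a 4.53-fold difference. Mean intronic FPKM was 46.5 ± 8.47 for WT against 640 ± 450 for Nxt1 (SD, n = 3 each), a 13.8-fold difference. Without Nxt1 replicate 2 the intronic fold was 8.25 and the mRNA fold 3.84. The intronic share of the reads was 6.36%, 6.30% and 6.35% in WT and 12.8%, 23.4% and 12% in Nxt1, with every Nxt1 library above every WT library, as in 15.2% of the 2489 genes.

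The span of NaPi-III holds another gene, nol (FBgn0014368), in the Release 6 reference table. The mRNA reads of nol numbered 7, 2 and 4 in WT and 103, 553 and 124 in Nxt1, again highest in Nxt1 replicate 2. The intronic count of NaPi-III exceeded the nol count in every library. After the nol reads were taken away, 25, 23 and 27 intronic reads were left in WT and 25, 75 and 48 in Nxt1. Divided by the library factors these were 20.9 ± 3.60 in WT and 55.2 ± 15.2 in Nxt1 (SD, n = 3 each), a 2.64-fold difference, which is below the 3-fold of the rule. The intronic share of NaPi-III reads was then 5.04%, 5.82% and 5.58% in WT and 2.78%, 3.53% and 3.67% in Nxt1, so that the order of the groups turned. The library kit kept the strand, but the sources used here state neither whether counting used it nor whether reads of nol were counted as intronic reads of NaPi-III, and the part of nol in the values was not tested. A second nested gene, CG32074, had between 0 and 4 mRNA reads per library. The nearest gene after NaPi-III, CG14143, had 1 read in each WT library, and 1, 60 and 2 in the Nxt1 libraries.

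**Figure D2:**
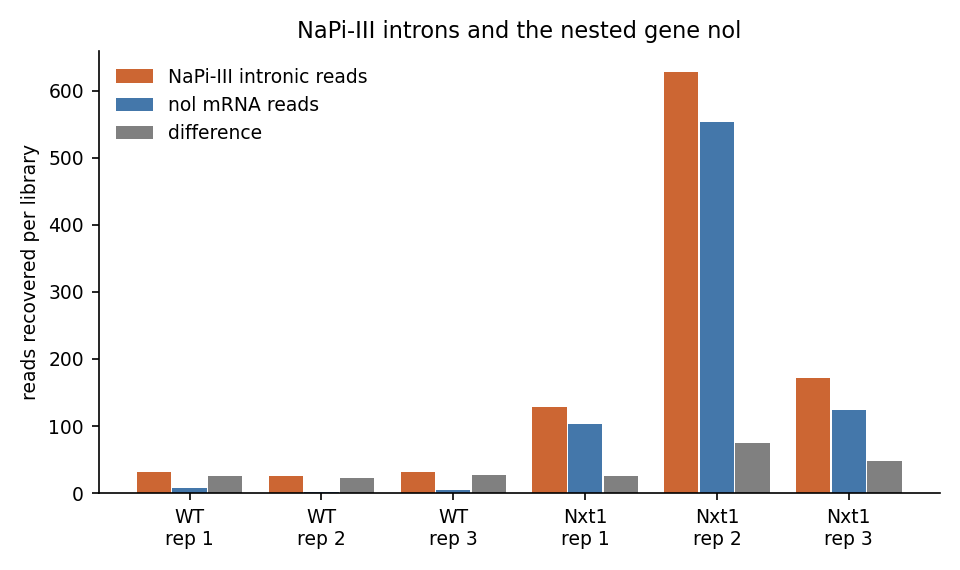
Recovered reads per M library on a linear axis from 0: intronic reads of NaPi-III, mRNA reads of the nested gene nol, and their difference. In Nxt1 replicate 2 the intronic count was 628 and the nol count 553, and the difference stayed between 23 and 75 reads in the 6 libraries.

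CG13579 (FBgn0035010) was higher in intronic reads and not in mRNA. Its intronic reads numbered 8, 15 and 9 in WT and 34, 64 and 59 in Nxt1, with mean values of 90.2 ± 29.2 FPKM and 621 ± 36.1 FPKM (SD, n = 3 each), 6.88-fold higher in Nxt1. Its mRNA reads numbered 7, 12 and 4 in WT and 0, 6 and 9 in Nxt1. Between the groups, intronic values were well apart and mRNA values overlapped. Mean mRNA FPKM was 0.134 ± 0.0701 for WT against 0.108 ± 0.0986 for Nxt1 (SD, n = 3 each). From summed reads the mRNA fold was 0.929 with a 95% interval of 0.451 to 1.86, while the intronic fold was 6.81 with an interval of 4.64 to 10.3. The mRNA fold lay on either side of 1 as libraries were left out, from 0.492 without Nxt1 replicate 3 to 1.21 without Nxt1 replicate 1. Intronic reads made up 53.3%, 55.6% and 69.2% of the gene's reads in WT and 100%, 91.4% and 86.8% in Nxt1. Every Nxt1 share was above every WT share, as in 15.2% of the 2489 genes. Of the 3 genes nested in its span, CG3492, CG3494 and CG16837, none had more than 5 mRNA reads in any library, against 34 to 64 intronic reads of CG13579 in Nxt1. The nearest gene before CG13579, CG4563, had 0, 3 and 0 mRNA reads in WT libraries, then 3, 24 and 16 in those of Nxt1, and its part in the intronic values was not tested.

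CG13579 was also the only one of the 5 genes with a listed circRNA. Circles arise when the end of an exon is spliced back to the start of the same or an earlier exon, and RNase R removes linear RNA but spares them. The table of the Nxt1 R libraries listed a circle of CG13579 that runs from exon 2 to exon 4 of an annotated transcript, if the circle's name is read as transcript, last exon and first exon. It had 13 and 15 back-splice reads in the 2 columns of reads of that table. By summed reads it ranked 279 of the 467 circRNAs listed for Nxt1. CG13579 had the fewest mRNA reads in the Nxt1 M libraries of all 366 host genes in that table, 15 in sum against a median of 7032. The WT table, with 596 circRNAs, listed none for any of the 5 genes. Each table has reads of 2 libraries for the 3 of a genotype, not tied to a replicate, and the sources used here give no rule for listing a circle, so no test was made and an unlisted circle is not shown to be absent from WT.

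**Figure D3:**
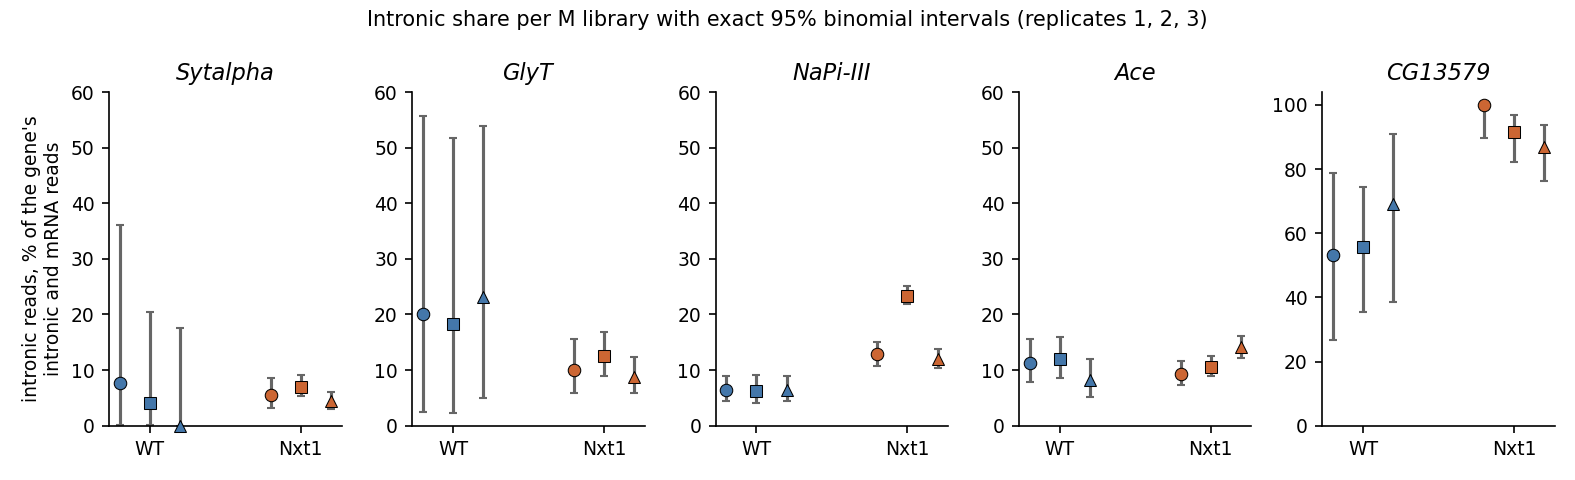
Intronic reads as a percentage of each gene's intronic and mRNA reads in each M library, with exact 95% binomial intervals (the vertical axis runs to 60% for 4 genes and past 100% for CG13579). The shares of Ace and Sytalpha overlap between the genotypes, and those of GlyT are lower in Nxt1 within wide WT intervals. Those of NaPi-III and CG13579 are higher in Nxt1. For NaPi-III the order turned once the reads of nol were taken away (5.04% to 5.82% in WT, 2.78% to 3.67% in Nxt1).

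Set against mRNA, the intronic changes of the 5 genes fell on both sides of an equal change. The log2 mRNA fold minus the log2 intronic fold was -3.09 for CG13579, -1.60 for NaPi-III (0.78 without the reads of nol), -0.77 for Sytalpha, -0.13 for Ace and 1.21 for GlyT. Over 2465 genes with a mean of at least 10 reads in both tables the median of this difference was -0.01, with quartiles of -0.24 and 0.24. The value of Ace lay between the quartiles. With each library left out in turn, the sign held for CG13579, NaPi-III, Sytalpha and GlyT and turned for Ace without Nxt1 replicate 3 (0.04). The size for Sytalpha was not stable, at -0.14 without WT replicate 3 and -1.41 without WT replicate 1. For GlyT the sign also depends on the pseudocount, since the same difference on log2(FPKM + 1) was -1.14 and on log2(FPKM + 0.1) was 0.50. Its WT mean of 0.153 mRNA FPKM is below a pseudocount of 1, which makes the mRNA fold smaller. The log2 mRNA fold was 2.51 on FPKM + 1, 4.49 on FPKM + 0.1 and 5.19 from mean FPKM alone.

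**Figure D4:**
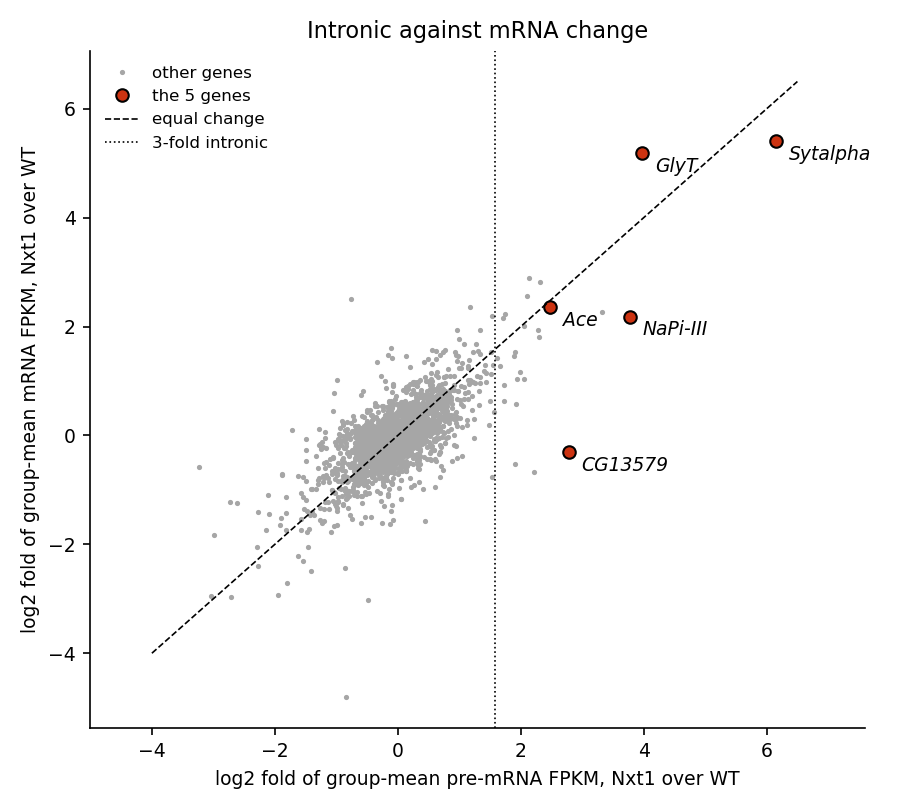
Log2 fold of group-mean mRNA FPKM against log2 fold of group-mean pre-mRNA FPKM, Nxt1 over WT, for 2465 genes with a mean of at least 10 reads in both tables (grey) and the 5 genes (red), of which CG13579 has fewer mRNA reads. Ace (5.59-fold intronic, 5.10-fold mRNA) lies next to the line of equal change, GlyT above it and the other genes below it. NaPi-III is drawn before the reads of nol were taken away, after which its log2 mRNA fold minus log2 intronic fold was 0.78.

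Over all genes, limma (adjusted p under 0.05) called 0.839% of 3576 genes higher in intronic values, 0.643% lower and 1.48% either way. In mRNA it called 12.5% of 8923 genes higher and 21.6% either way, and the ratio of mRNA to intronic value was called in 0.290% of 3103 genes. The rule used this contrast, so no calls are given for the 5 genes and nothing is read from the counts that follow. Groups did not overlap, with Nxt1 higher, in the intronic values of the 5 genes and of 11.0% of 4543 genes, and in the mRNA values of 4 of them and of 17.8% of 15293 genes. Those 4 genes were also at least 3-fold higher in mean mRNA, as were 3.58% of 10442 genes with a mean of at least 10 mRNA reads. With all libraries scaled to equal totals, the median log2 fold over tested genes went from 0.01 to -0.32 for mRNA and from -0.03 to -0.15 for pre-mRNA. On log2(FPKM + 1), equal totals moved the log2 folds of mRNA from 4.56 to 4.27 for Sytalpha and from 2.51 to 2.33 for GlyT. They moved from 2.02 to 1.67 for NaPi-III and from 1.88 to 1.58 for Ace. All stayed far above that median. These values are not the ratios of mean FPKM given above.

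Levels of different genes can be compared once each is set on its own length. The lengths found for 4 of the genes were 2936 exonic bases for Sytalpha, 6361 for GlyT, 3715 for NaPi-III and 3725 for CG13579, and none was recovered for Ace. In WT the mRNA level per exonic kilobase was 96.5 ± 12 scaled reads for NaPi-III, 5.18 ± 1.75 for Sytalpha, 1.70 ± 0.887 for CG13579 and 1.17 ± 0.163 for GlyT (SD, n = 3 each). CG13579 and GlyT were within their spread of each other. In Nxt1 the order was NaPi-III at 437 ± 119, Sytalpha at 218 ± 41.7, GlyT at 42.7 ± 3.26 and CG13579 at 1.37 ± 1.25 scaled reads per kilobase (SD, n = 3 each). No pre-mRNA length was recovered for CG13579 or Sytalpha, so the span less the exonic length stood in for it. Where both were found, the 2 were equal within 1 base in 65.5% of 4494 genes. So taken, CG13579 has 31640 intronic bases, and per intronic kilobase it had 0.279 ± 0.0903 scaled reads in WT and 1.92 ± 0.112 in Nxt1. In Nxt1 this intronic level was close to that of GlyT (2.37 ± 0.305 over 13150 bases) and under that of Sytalpha (4.10 ± 1.20 over 9192 bases), both of which had far more mRNA.

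Genes with the most similar pattern were sought over 12 values, mRNA and intronic log2(FPKM + 1) in the 6 M libraries, among 2281 genes. Pearson's r was 0.990 for Stacl and 0.968 for CG42402 with Sytalpha, 0.978 for Stacl and 0.976 for eIF4EHP with GlyT, 0.983 for CG42402 and 0.978 for TpnC73F with Ace, and 0.971 for alphaTub84B and 0.954 for CAP with NaPi-III. CG13579 was most like Stlk (0.954) and CARPB (0.951). The correlation ignores size: the intronic fold of Stacl was 2.85 and that of eIF4EHP 1.48. The values of a gene share libraries, and groups that lie apart make high correlations common, so these are descriptions.

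For the gene lists and marker lists that follow, each count by limma stands beside the shares over all 8923 genes tested. Of these 12.5% were called higher and 9.10% lower. With so few genes a list, no list is read as standing apart from those shares. Folds and fractions of WT in these lists are on FPKM + 1, so at low FPKM they understate the change in mean FPKM. Of 23 other genes of synaptotagmins and synaptic vesicle release 16 were tested, and 1 rose and 2 fell by limma, with a median log2 fold of -0.18 against 0.01 for all genes. The syntaxin gene Syx1A, which encodes a membrane protein of vesicle fusion, rose 1.54-fold (limma adjusted p = 0.00405), with a mean of 28.2 ± 1.42 FPKM for WT against 44.0 ± 1.59 for Nxt1 (SD, n = 3 each). Under equal totals, where 17 were tested, 1 gene of this list was called higher and 11 lower. Over all 8922 genes tested there, 528 were called higher and 4369 lower. In this list edgeR called 1 of 22 genes higher and 5 lower, and DESeq2 4 of 23 higher and 5 lower. Over all genes edgeR called 1111 of 10484 higher and 1253 lower, and DESeq2 1538 of 15293 higher and 1195 lower. On FPKM + 1 the synaptobrevin gene nSyb and the vesicle GTPase gene Rab3 fell to 0.754 and 0.538 of WT. Mean FPKM went from 1.49 in WT to 0.877 in Nxt1 for nSyb and from 6.20 to 2.93 for Rab3. Each call was lost without any of 5 of the 6 libraries. The neuronal calcium sensor of vesicle release, Syt1, had a log2 fold of -0.10 (limma adjusted p = 0.561). Its unscaled reads numbered 381, 371 and 300 in WT libraries, then 180, 256 and 226 in those of Nxt1. Its mean FPKM was 4.23 in WT and 3.88 in Nxt1. Of the 16 other genes of cholinergic transmission 3 passed the filter of 1 FPKM. That filter rests on the lengths out of order and so not on reads alone. Of those 3 genes 1 fell, the choline transporter gene ChT (0.631 of WT on FPKM + 1, limma adjusted p = 0.0123). Its mean went from 2.69 FPKM in WT to 1.32 FPKM in Nxt1. Over those 3 genes the median was -0.17. That call was lost without WT replicate 1, Nxt1 replicate 2 or Nxt1 replicate 3. ChAT, which makes acetylcholine, was under the filter with 90, 84 and 97 unscaled reads in WT libraries, then 34, 27 and 31 in those of Nxt1. The vesicular acetylcholine transporter gene VAChT was also under the filter, with 209, 174 and 207 unscaled reads in WT libraries, then 57, 103 and 93. Mean FPKM went from 0.559 in WT to 0.291 in Nxt1 for ChAT and from 0.944 to 0.575 for VAChT. With edgeR, which tested 11 of these 16 genes on reads, 2 were called lower.

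Beside the same 12.5% higher and 9.10% lower over all genes, 3 of 15 tested SLC6 transporter genes rose and 3 fell, of 20 in the list other than GlyT, with a median log2 fold of 0.19. CG13795 rose 2.25-fold (limma adjusted p = 0.00732), with a mean of 32.6 ± 5.03 FPKM for WT against 74.8 ± 12 for Nxt1 (SD, n = 3 each), and kept its call under all 12 alternatives run. The transporter gene blot rose 1.43-fold (limma adjusted p = 0.0307), a call lost with equal totals (log2 fold 0.14, adjusted p = 0.35) and without 4 of the 6 libraries in turn. On FPKM + 1, NAAT1, a transporter of essential amino acids, rose 1.57-fold. The serotonin transporter gene SerT, CG1698 and CG33296 fell to 0.682, 0.475 and 0.365 of WT on that scale. Mean FPKM went from 1.35 in WT to 2.68 in Nxt1 for NAAT1 and from 2.58 to 1.43 for SerT. For CG1698 it went from 6.80 to 2.68 and for CG33296 from 6.41 to 1.58. The call of NAAT1 was lost without Nxt1 replicate 3, that of CG1698 without WT replicate 1, Nxt1 replicate 1 or Nxt1 replicate 3, that of SerT without WT replicate 1 or any Nxt1 library, and that of CG33296 without any Nxt1 library. The calls of SerT and CG33296 were also lost with DESeq2. Among 15 other genes of phosphate transport 11 were tested, and 2 rose and 1 fell, with a median of 0.10. The mitochondrial phosphate carrier gene Mpcp1 rose 3.52-fold (limma adjusted p = 0.0429), but its call was lost without any of 5 of the 6 libraries, with no filter on low values and with edgeR. NaPi-T rose 1.58-fold, with a call lost under equal totals (limma adjusted p = 0.0517) and without Nxt1 replicate 2 or 3, and CG7536 fell to 0.839 of WT, with a call lost without any of 5 libraries. Of 20 aminergic and other G protein coupled receptor genes, set beside CG13579, 9 were tested and 4 fell, the other 5 being short of the threshold, with a median of -0.60. The octopamine receptor gene Octalpha2R fell to 0.473 of WT (limma adjusted p = 0.0228), with a mean of 10.4 ± 2.96 FPKM for WT against 4.32 ± 0.970 for Nxt1 (SD, n = 3 each), a call lost without WT replicate 1, Nxt1 replicate 1 or Nxt1 replicate 2. The dopamine receptor gene Dop2R fell to 0.459 and the octopamine receptor gene Oamb to 0.598 of WT on FPKM + 1, both under all alternatives. Mean FPKM went from 2.45 in WT to 0.586 in Nxt1 for Dop2R and from 2.12 to 0.874 for Oamb. The adenosine receptor gene AdoR fell to 0.659 on FPKM + 1, a call lost without WT replicate 1 or any Nxt1 library. The direction of each gene called in these lists held under equal totals. With replicate number as a block in limma, the calls of nSyb, Rab3, NAAT1, SerT, blot and CG33296 were lost. So were those of NaPi-T, CG7536, Mpcp1, ChT, Octalpha2R and AdoR. Without a filter on low values the calls of Rab3 and AdoR were lost as well.

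No marker of neurons was called higher by limma, edgeR or DESeq2, where 12.5% of all genes were called higher and 9.10% lower by limma. Of 12 neuronal markers, none of them at 0, 9 were tested and 1 fell (nSyb), with 3 at an unadjusted p under 0.05. By edgeR 3 of 12 were lower, by DESeq2 4 of 12, and under equal totals 9 of 9. Over all genes edgeR called 1253 of 10484 lower and DESeq2 1195 of 15293. Under equal totals 4369 of all 8922 genes were called lower and 528 higher, so lower calls were common there. Summed scaled reads of the neuronal markers lay between 2760 and 2907 in WT and between 2063 and 2517 in Nxt1, lower in every Nxt1 library. The markers with the most reads, elav and futsch, differed. For elav, mean FPKM was 25.0 ± 1.37 in WT and 26.8 ± 2.18 in Nxt1, and for futsch 51.2 ± 5.24 and 39.3 ± 3.82 (SD, n = 3 each). Their log2 folds were 0.10 and -0.37, neither called, and the median of the list was -0.25. Of 11 glial markers, none of them at 0, 9 were tested and 1 fell, the glial transcription factor gene repo. The sums of this list were 25717 to 39710 in WT and 29328 to 33764 in Nxt1. They mainly follow Gs2, with 27369, 34641 and 18636 unscaled reads in WT against 191, 158 and 146 for repo. The log2 fold was -0.04 for Gs2 and -0.55 for repo. The other marker lists differed in direction, and their counts of higher calls are set against the same 12.5%. Of the 10 muscle markers 5 rose (sums of 861289 to 1920087 in WT and 2310570 to 2997529 in Nxt1), of 10 epidermal and cuticle markers 4 rose (1164370 to 1386427 and 2376752 to 3051423), and of 7 fat body markers 4 rose (120199 to 141805 and 214811 to 308999). Salivary gland markers rose in 5 of 6 tested, with sums of 700 to 5177 in WT and 7229 to 19089 in Nxt1. Among 8 hemocyte markers 2 rose and 1 fell, and their sums went from 20486 to 26771 in WT and from 33425 to 47156 in Nxt1. Of the tracheal markers limma called 0 of 5 tested, edgeR 0 of 6 and DESeq2 1 of 6 higher, with 3 at an unadjusted p under 0.05 and 2 called lower under equal totals (sums of 38246 to 49382 and 45815 to 59749). Of 6 imaginal cell markers tested 3 fell (4695 to 5158 and 3716 to 4752). Of 4 midgut markers tested 1 rose (145 to 1761 and 493 to 3939), and of 4 Malpighian tubule markers the 1 tested rose (42.9 to 73.2 and 127 to 149). Under equal totals 2 of the 10 muscle markers were called higher, and 3 of the epidermal and cuticle markers higher with 2 lower. By edgeR 3 of 10 muscle and 3 of 7 salivary gland markers were called higher. No marker of these lists was at 0 in all libraries. The part of these tissues in the values of the 5 genes was not tested.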

How the data were processed

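The authors gave mRNA and pre-mRNA levels as FPKM for the 6 M libraries. The circRNA tables hold raw counts of back-splice reads, deposited by the authors without a statement of the caller, and the 6 columns of scaled values in them were not used here. Trimmomatic 0.36, STAR 2.5.3a, Subread, DESeq2 and featureCounts 1.6.2 are listed without roles in the submitters' processing notes. Neither the genome build nor the part of a gene counted as pre-mRNA was stated, so no coordinates are printed. Pre-mRNA is called intronic because, once the implied lengths were put back in order as below, the pre-mRNA length equalled the span less the exonic length within 1 base in 65.5% of 4494 genes.

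Whole reads were recovered from FPKM for each of the 15293 genes of mRNA and 4543 of pre-mRNA that had finite values and reads (tolerance 0.01, 294 and 82 genes multiplied by a shared factor), since ratios within a gene are whole-number ratios after 1 factor per library. Pre-mRNA values are infinite in 1757 and undefined in 2878 genes, which were left out. The implied lengths had Spearman's rho of 0.0281 (mRNA) and 0.0143 (pre-mRNA) with the gene's own span, while for the gene holding the same rank among sorted IDs it was 0.933 and 0.859. A gene's own length was read from that rank, and where no pre-mRNA length was found there the span less the exonic length was used. Scaled reads are reads divided by the deposited library factor.

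The test was limma 3.58.1 (R 4.3.3), with a trended eBayes fit of log2(FPKM + 1) on genotype over the 6 M libraries, for genes averaging 1 FPKM or more. The threshold was an adjusted p (Benjamini-Hochberg) under 0.05. Alternatives used edgeR 4.0.16 and DESeq2 1.42.0 on recovered reads. List folds are on FPKM + 1. Folds of the 5 genes are ratios of mean FPKM, except where log2(FPKM + 1) is named. Recovery and fits were tested on simulated data. Intervals are exact binomial (scipy 1.17.1) or conditional odds ratios, at 95%.

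The 5 genes were chosen by their intronic fold. The 5 related-gene lists and the 11 marker lists were written from general knowledge, and the same genes can be in 2 lists. All were chosen with earlier results of these data known. The rule for names took the 5 genes, the 2 genes most like each, the 2 on each side of 3-fold, nested and neighbouring genes, and per list up to 4 called genes averaging 5 FPKM or more. Other called list genes (nSyb, Rab3, NAAT1, SerT, CG1698, CG33296, NaPi-T, ChT, Oamb, Dop2R and AdoR), Syt1, ChAT, VAChT, elav, futsch, repo, Gs2, mwh and veil were named after their values were seen. IDs were matched to symbols for 17371 of 17492 genes, and overlaps come from the reference table of Release 6. Sequences of the 5 genes were not used here.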

Additional observations from a re-analysis of the deposited data

How the results depend on the processing

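Against 1929 mRNA genes called in the reported fit, 4897 were called with equal totals (528 higher, 4369 lower), 585 with the replicate block, and 757 to 2691 with 1 library left out. Against 53 pre-mRNA genes, edgeR called 208 and DESeq2 237, the replicate block in limma called 0 (508 at an unadjusted p under 0.05), and leaving out 1 library gave 14 to 139. Against 9 genes for the ratio of mRNA to pre-mRNA, 22 were called with a pseudocount of 0.1, 30 with no filter, 105 with equal totals, 1 with the replicate block and 3 to 24 with 1 library left out. The ratio of GlyT turned to 0.50 with a pseudocount of 0.1 FPKM, from -1.14. The difference of the NaPi-III log2 folds turned from -1.60 to 0.78 without the reads of nol, an alternative chosen after seeing the data. Of 149 log2 values of the 5 genes under alternatives, 127 moved by less than the replicate SD, 21 moved by more in the same direction and 1 turned. Same-numbered M libraries did not deviate together (r of -0.081, -0.123 and -0.286 in mRNA), so the numbers are not taken to pair them. A minimum of 10 reads in a library could not remove the circRNA of CG13579, which had 13 and 15 reads, so nothing is read from that setting. Where a cause is not named, it was not tested. Depth limits Sytalpha and GlyT most, with 2 and 7 intronic reads in WT.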

Other observations

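Of the 30 genes at or above 3-fold in intronic reads, 3 had a lower mean of mRNA in Nxt1, CG13579, CARPB and CG3277, of which CARPB and CG3277 were named after their values were seen. CARPB had 193, 194 and 137 intronic reads in WT and 315, 502 and 569 in Nxt1, 3.76-fold by mean FPKM, while its mRNA reads numbered 239, 229 and 149 in WT and 77, 94 and 125 in Nxt1. CG3277 had 50, 16 and 33 intronic reads in WT and 73, 137 and 116 in Nxt1 (4.62-fold), and 34, 33 and 39 mRNA reads in WT against 9, 17 and 22 in Nxt1. In both genes the mean mRNA fell short of WT, at 0.696 and 0.627 of it. The largest intronic fold outside the 5 genes was that of mwh at 9.95, with 67, 220 and 52 intronic reads in WT and 115, 1709 and 899 in Nxt1, where the groups overlap in raw reads and not in FPKM.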
